A study of Mus musculus with 6 samples.

Results

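Heat shock proteins are molecular chaperones, and 10 of their genes were followed here in macrophages of the infarcted mouse heart: Hspa1a, Hspa1b, Hspa8, Hspa5, Hsph1, Dnajb1, Hsp90aa1, Hsp90ab1, Hspb1 and Hspe1. They were picked out by name from a count table of 54532 genes, with earlier results of these data known, and all 10 were among the 14522 genes that passed the filter on low counts. The RNA-seq libraries came from hearts of 12-week-old C57BL/6 mice, 7 days after permanent coronary occlusion. In the 3 control mice, labelled ITGA5 fl/fl, the gene of integrin α5 was flanked by loxP sites and intact, and by the study's breeding scheme these were littermates without Cre. In the 3 mice labelled Myα5KO, the same floxed alleles were combined with the LyzM-Cre driver, which deletes in myeloid cells generally and not in macrophages alone. Every heart, of either genotype, was infarcted, minced and digested with enzymes one mouse at a time, and the cells were then depleted of Ly6G+ neutrophils and selected for CD11b on magnetic columns. Sham-operated hearts were not analysed here.

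Chaperones bind unfolded polypeptides and use cycles of ATP hydrolysis to let them fold, refold or be handed on for degradation. In the cytosol, HSP70 proteins take up clients with the help of J-domain proteins, are recharged by nucleotide exchange factors such as HSP110, and pass many clients to HSP90, whereas small heat shock proteins hold aggregating chains without using ATP. Heat, oxidants, ischaemia and enzymatic tissue digestion can all induce the heat shock genes through the transcription factor HSF1, while BiP, the HSP70 of the endoplasmic reticulum, answers to the unfolded protein response.

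Promoters from both arms are shown for 4 genes, because the results turn on Hspa5 and on the Hspa1a and Hspa1b pair, with Hspe1 as a gene that carries a long heat shock element and whose difference had an interval spanning 0. RefSeq windows of build GRCm38.p6 were found for 7 of the 10 genes, and those of Hspa8, Hsp90aa1 and Hsp90ab1 had no entry. Each line gives the 250 bases before the transcription start, 5′ to 3′ on the strand of the gene. Capitals mark a heat shock element of 2 or more units in Hspa1a, Hspa1b and Hspe1, and the endoplasmic reticulum stress element in Hspa5. The windows are chr17:34972157-34972406 on the minus strand for Hspa1a, chr17:34959239-34959488 on the minus strand for Hspa1b, chr1:55087898-55088147 on the plus strand for Hspe1 and chr2:34771840-34772089 on the plus strand for Hspa5.
Hspa1a: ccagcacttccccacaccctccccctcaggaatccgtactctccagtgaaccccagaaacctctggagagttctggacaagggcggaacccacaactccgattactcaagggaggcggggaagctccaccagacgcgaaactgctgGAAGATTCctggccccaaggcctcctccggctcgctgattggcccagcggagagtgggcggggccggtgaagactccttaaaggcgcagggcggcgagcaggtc
Hspa1b: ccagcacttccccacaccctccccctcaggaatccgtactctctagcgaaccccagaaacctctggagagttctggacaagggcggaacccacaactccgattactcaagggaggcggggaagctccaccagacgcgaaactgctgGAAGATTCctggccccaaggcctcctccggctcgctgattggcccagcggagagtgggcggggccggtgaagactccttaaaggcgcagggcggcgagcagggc
Hspe1: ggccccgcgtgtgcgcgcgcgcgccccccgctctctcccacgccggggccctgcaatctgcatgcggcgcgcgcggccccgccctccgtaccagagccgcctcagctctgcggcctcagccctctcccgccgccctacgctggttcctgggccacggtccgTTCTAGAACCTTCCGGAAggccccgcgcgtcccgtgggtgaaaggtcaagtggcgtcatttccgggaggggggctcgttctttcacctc
Hspa5: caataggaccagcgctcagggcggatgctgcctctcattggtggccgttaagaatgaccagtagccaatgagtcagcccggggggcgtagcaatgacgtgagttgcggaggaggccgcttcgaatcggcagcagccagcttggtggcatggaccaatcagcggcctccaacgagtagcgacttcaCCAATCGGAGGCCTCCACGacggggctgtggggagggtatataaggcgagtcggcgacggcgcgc

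The Hspa1a and Hspa1b windows differed at 3 of 250 bases, and their starts lie 12918 bases apart on chromosome 17. A heat shock element of 2 units, written GAANNTTC or TTCNNGAA, was found in the 300-base windows (250 bases before and 50 after the start) of Hspa1a, Hspa1b, Hspb1, Hspe1 and Hsph1, which is 5 of 7 genes against 15.1% of all 32851 promoter windows. In Hspa1a and Hspa1b it was the same word, GAAGATTC, at bases -104 to -97. These 2 windows are nearly identical, so their matches are not separate. The 5 of 7 counts genes, some of which have several windows, whereas the 15.1% counts windows. The longer form of 3 units, GAANNTTCNNGAA or TTCNNGAANNTTC, was present in Hspe1, where 2 overlapping matches spanned bases -89 to -72, and in Hsph1 after the start, against 0.603% of all windows. The longer form contains the shorter, so the counts are not separate. Of the 7 genes, only Hspa5 had a window that held the endoplasmic reticulum stress element, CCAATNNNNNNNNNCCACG on either strand, at bases -65 to -47, against 0.119% of all windows. Its first letters are a CCAAT box, which alone occurred in 37.4% of windows. The exact word TATAAA was in no window of the 7 genes and in 13.6% of all. Other forms of the TATA box were not searched, and the Hspa5 line above holds the related letters tatataag near its end. These matches are descriptions of letters and not of bound sites.

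Libraries held 15424451 to 18419287 counts, of which the 10 genes took 0.816 to 1.01%. Itga5, the targeted gene, kept 8.02% of its control level (log2 fold change -3.64, SE 0.08, adjusted p 4.42e-12 in edgeR), so the labels matched the genotype. Macrophage markers such as Csf1r, Adgre1 and C1qa were abundant. The 12 listed summed to 24670.5 to 25269.6 CPM in ITGA5 fl/fl and 19420.9 to 20008.4 CPM in Myα5KO libraries. Of the 12, 3 were called, against 8.75% of all tested genes: Lyz2, the host of the Cre driver, and Cd14 lower, and Fcgr1 higher. The sums include Lyz2. The median log2 fold change of the 12 was -0.05 (0.03 with libraries scaled by totals alone). CPM are counts relative to the library total after scaling with TMM factors, in the usual unit of edgeR. In bulk RNA, fewer cells of a type and less RNA per cell cannot be told apart.

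Under this scaling and test, 1 of the 10 genes changed: Hspa5 fell in Myα5KO macrophages. None of the other 9 passed an adjusted p of 0.05 in either direction. For comparison, edgeR called 8.75% of all tested genes, 3.56% as higher and 5.19% as lower. The balance over all genes depended on the scaling, since totals alone gave 1212 higher and 518 lower genes in place of 517 and 754. DESeq2 and limma-voom also called no gene of the 10 as higher, against 3.15% and 3.31% of all genes they tested. At an unadjusted p under 0.05, Hspa1a, Hspa1b, Hsph1 and Dnajb1 were higher in Myα5KO, which is 4 of 10 against 11.7% of tested genes. These 4 are not independent, since Hspa1a and Hspa1b share reads and all 4 had the same highest and lowest Myα5KO library. The log2 fold change was positive for 7 genes and negative for 3 (9 and 1 with libraries scaled by totals alone), with a median of 0.20 against 0.01 over all tested genes. No overlap between the 3 libraries of one group and those of the other was seen for Hspa5 and Hspa8, 2 of 10 genes against 28.6% of tested genes.

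**Figure D1:**
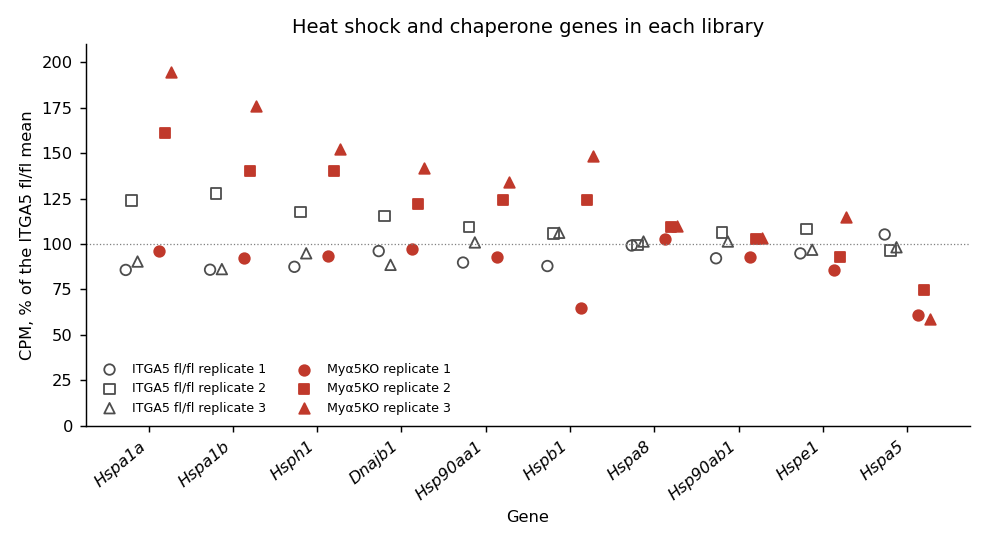
Level of each of the 10 genes in each of the 6 libraries, in CPM as a percentage of the mean of the 3 ITGA5 fl/fl libraries (dotted line at 100). Open grey symbols are ITGA5 fl/fl and filled red symbols Myα5KO, with the replicate number by shape. In the 5 genes on the left, Myα5KO replicate 1 lies among the controls and replicates 2 and 3 above them, reaching 194% for Hspa1a, while Hspa5 is at 58.8 to 74.6% in all 3.

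Hspa5 encodes BiP, which folds newly made secretory and membrane proteins in the endoplasmic reticulum and holds the sensors of the unfolded protein response inactive (ENSMUSG00000026864, GRCm38 chromosome 2, 34771970 to 34777547, plus strand). It had 3162, 2901 and 2951 CPM in ITGA5 fl/fl replicates 1, 2 and 3, and 1826, 2240.3 and 1767 CPM in Myα5KO replicates 1, 2 and 3. Every Myα5KO library was below every control library. The mean fell from 3005 ± 139 to 1944 ± 258 CPM (SD, n = 3 each), and thus to 64.7% of the control. The log2 fold change was -0.63 (SE 0.09, 95% interval -0.83 to -0.43, adjusted p 0.00141 in edgeR).

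The decrease of Hspa5 was also called in 17 of 19 alternative settings, and with any 1 library left out its log2 fold change lay between -0.75 and -0.56. It was not called in a test for a change above 1.5-fold (adjusted p 1.00). Among the 3 Myα5KO libraries the order of Hspa5 was not that of the other genes, since replicate 3, the highest for 9 of the 10 genes, was the lowest for Hspa5. The summed CPM of 10 fibroblast markers, a cell type rich in secretory proteins, lay between 1664.6 and 1943 in ITGA5 fl/fl and between 1249 and 1615 in Myα5KO libraries. All 10 of these marker genes had a negative log2 fold change, with a median of -0.29, and of them only Postn was called. With libraries scaled by totals alone, 9 were negative and the median was -0.21. At an unadjusted p under 0.05 in edgeR, 7 of the 10 were lower, against 11.4% of all tested genes. No defining fibroblast marker was at 0, and the part of these cells in the Hspa5 difference was not tested.

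BiP works with a set of endoplasmic reticulum proteins, and the 13 tested genes of this list all had negative log2 fold changes, from -0.32 to -0.04 with a median of -0.18, although scaling by library totals alone turned 2 of them positive and gave a median of -0.10. Of these only Herpud1, a membrane protein of endoplasmic reticulum associated degradation, fell by the test, with a log2 fold change of -0.30 (SE 0.08, adjusted p 0.0303 in edgeR). At an unadjusted p under 0.05, 8 of the 13 were lower, against 11.4% of all tested genes. Hyou1, the large HSP70 relative that exchanges nucleotide on BiP, fell too, with a log2 fold change of -0.30 (adjusted p 0.0277 in edgeR). Neither call was made with libraries scaled by totals alone (adjusted p 0.0776 for Herpud1 and 0.0711 for Hyou1) or without ITGA5 fl/fl replicate 2 or 3. Herpud1 was also lost without Myα5KO replicate 1, and Hyou1 without Myα5KO replicate 2 or 3, with log2 fold changes between -0.38 and -0.22 for Herpud1 and between -0.36 and -0.22 for Hyou1 and adjusted p up to 0.131 and 0.119 over the fits with a library left out. The HSP90 of the same compartment, Hsp90b1, had a log2 fold change of -0.23 (95% interval -0.39 to -0.07, adjusted p 0.0816 in edgeR) and was not called.

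Per unit length, Hspa5 stood at 5.83, 5.13 and 5.00 times the FPKM of Hsp90b1 in the ITGA5 fl/fl libraries and at 3.74, 4.29 and 4.03 times in the Myα5KO libraries. The ratio of Hspa5 to Hspa8, the constitutive cytosolic HSP70, was 1.23, 1.12 and 1.12 in the control libraries, against 0.68, 0.79 and 0.62 in those of Myα5KO. Neither ratio overlapped between the groups, but Hspa5 alone did not overlap either, so the ratios are not separate evidence. The ratios were given no test.

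Hspa1a encodes a stress-inducible cytosolic HSP70 (ENSMUSG00000091971, chromosome 17, 34969190 to 34972156, minus strand). Its levels were 399, 576 and 421 CPM in ITGA5 fl/fl and 446, 749 and 904 CPM in Myα5KO replicates 1, 2 and 3. Myα5KO replicates 2 and 3 exceeded all controls, while replicate 1 lay below ITGA5 fl/fl replicate 2. The means were 465 ± 96.8 and 699.9 ± 233 CPM (SD, n = 3 each). The log2 fold change was 0.59 (SE 0.20, 95% interval 0.17 to 1.01), with an unadjusted p of 0.00984 and an adjusted p of 0.0827 in edgeR.

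Hspa1b encodes a nearly identical protein from the adjacent gene (ENSMUSG00000090877, chromosome 17, 34956436 to 34959238, minus strand). It had 711, 1059.8 and 714 CPM in ITGA5 fl/fl and 767, 1162 and 1458 CPM in Myα5KO libraries. The order of the libraries was that of Hspa1a, with control replicate 2 above Myα5KO replicate 1, so the groups overlapped. The log2 fold change was 0.45 (SE 0.19, 95% interval 0.04 to 0.86, adjusted p 0.177 in edgeR).

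Reads cannot be placed on Hspa1a or Hspa1b alone over much of their length. Of the 150-base words of Hspa1a transcripts, 38.1% occur in Hspa1b too, and 40.5% of those of Hspa1b occur in Hspa1a, so the split of counts between them is uncertain. The FPKM of Hspa1a was 0.53, 0.51 and 0.56 times that of Hspa1b in ITGA5 fl/fl and 0.55, 0.61 and 0.59 times in Myα5KO libraries. With their counts summed into a single feature, the log2 fold change was 0.50 (SE 0.19, adjusted p 0.136 in edgeR), again not called. The annotated gene Gm20481, which overlaps Hspa1a on the opposite strand, had 0 counts in all 6 libraries.

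Hsph1 encodes HSP110, an exchange factor and disaggregase partner of HSP70 (ENSMUSG00000029657, chromosome 5, 149614287 to 149636376, minus strand). It had 173, 233 and 188 CPM in ITGA5 fl/fl and 185, 277 and 301 CPM in Myα5KO libraries, with a log2 fold change of 0.36 (SE 0.15, 95% interval 0.05 to 0.68, adjusted p 0.155 in edgeR). Dnajb1 encodes HSP40, the inducible J-domain partner (ENSMUSG00000005483, chromosome 8, 83608193 to 83612653, plus strand). It had 102, 123 and 94.4 CPM in ITGA5 fl/fl and 104, 130.02 and 151 CPM in Myα5KO libraries, with a log2 fold change of 0.27 (SE 0.12, 95% interval 0.01 to 0.53, adjusted p 0.198 in edgeR). In both genes Myα5KO replicates 2 and 3 were above every control library and replicate 1 was within the control range.

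Hsp90aa1 encodes the inducible cytosolic HSP90 (ENSMUSG00000021270, chromosome 12, 110690605 to 110702728, minus strand). It had 556, 677 and 625 CPM in ITGA5 fl/fl and 575, 770.4 and 830.4 CPM in Myα5KO libraries, with a log2 fold change of 0.23 (SE 0.12, 95% interval -0.02 to 0.48, adjusted p 0.266 in edgeR). Within Myα5KO, replicate 1 was again the lowest and replicate 3 the highest, and the groups overlapped.

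Its constitutive paralog Hsp90ab1 (ENSMUSG00000023944, chromosome 17, 45567775 to 45573271, minus strand) had 1198, 1384 and 1318 CPM in ITGA5 fl/fl and 1210.1, 1335 and 1341 CPM in Myα5KO libraries. The log2 fold change was 0.00 (SE 0.08) with a 95% interval of -0.17 to 0.16 (adjusted p 0.982 in edgeR). Its estimate changed sign under library-size scaling. The FPKM of Hsp90ab1 was 2.82, 2.68 and 2.76 times that of Hsp90aa1 in ITGA5 fl/fl and 2.76, 2.27 and 2.12 times in Myα5KO libraries, so that Myα5KO replicates 2 and 3 fell outside the control range of this ratio and replicate 1 inside it.

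Hspa8 encodes HSC70, the abundant constitutive HSP70 that also uncoats clathrin vesicles (ENSMUSG00000015656, chromosome 9, 40800984 to 40810087, plus strand). It had 2621, 2628 and 2679 CPM in ITGA5 fl/fl and 2722, 2893 and 2899.95 CPM in Myα5KO libraries. All 3 Myα5KO libraries were above all 3 controls, by a small margin. The log2 fold change was 0.10 (SE 0.07, 95% interval -0.05 to 0.26, adjusted p 0.418 in edgeR), and the gene was not called.

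Hspb1 encodes the small heat shock protein HSP25, which also binds actin (ENSMUSG00000004951, chromosome 5, 135887919 to 135889563, plus strand). It had 29.5, 35.5 and 35.6 CPM in ITGA5 fl/fl and 21.7, 41.7 and 49.7 CPM in Myα5KO libraries. Here the Myα5KO group held both the lowest and the highest of the 6 libraries, and the log2 fold change of 0.17 had a 95% interval of -0.28 to 0.62 (SE 0.21, adjusted p 0.686 in edgeR).

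Hspe1 encodes HSP10, the lid of the mitochondrial chaperonin (ENSMUSG00000073676, chromosome 1, 55088132 to 55091307, plus strand). It had 64.7, 74.0 and 66.1 CPM in ITGA5 fl/fl and 58.3, 63.3 and 78.6 CPM in Myα5KO libraries, with a log2 fold change of -0.03 (SE 0.10, 95% interval -0.25 to 0.18, adjusted p 0.877 in edgeR). As in Hspb1, the lowest and the highest library were both Myα5KO. Hspd1, the HSP60 gene that shares its promoter with Hspe1 on the opposite strand, had a log2 fold change of 0.19 (95% interval -0.02 to 0.40, adjusted p 0.264 in edgeR). The annotated genes overlap by 112 bases, and the library kit was not stated to keep strand.

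Near-identical copies limit some of these levels. Words of 150 bases shared with other genes made up 22.8% of Hspa8, 28.5% of Hsp90aa1 and 39.1% of Hspb1, chiefly with the pseudogenes Gm15459, Gm12346 and Hsp25-ps1. These held 4, 248 and 7 counts over all 6 libraries. For Hspe1 the share was 6.64%, and for Hspa5, Hsph1, Dnajb1 and Hsp90ab1 no such word was shared.

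The order of the levels per length put Hspa5 first in ITGA5 fl/fl macrophages, at 707 ± 34.4 FPKM (SD, n = 3). It was followed by Hspa8 at 612 ± 8.28, Hsp90ab1 at 432 ± 30.1 and Hspa1b at 294 ± 70.0 FPKM, with no overlap between the libraries of neighbours in this order. Hsp90aa1 (157 ± 14.9 FPKM) and Hspa1a (156 ± 31.9 FPKM) overlapped. Hspe1 had 46.1 ± 3.19 FPKM, and Dnajb1, Hspb1 and Hsph1, between 33.1 and 27.1 FPKM, overlapped their neighbours in the order. In Myα5KO macrophages Hspa8 came first at 655 ± 20.5 FPKM and Hspa5 second at 456 ± 62.7 FPKM, followed by Hsp90ab1 at 429 ± 22.7 and Hspa1b at 399 ± 120 FPKM. The Myα5KO libraries of Hspa8 were above all those of Hspa5, whereas those of Hspa5, Hsp90ab1 and Hspa1b overlapped. Reads shared with other genes may be missing from Hspa8, Hspa1a, Hspa1b, Hsp90aa1 and Hspb1, but not from Hspa5 or Hsp90ab1. The places of these genes in both orders, including which is first, are therefore uncertain, and the SD does not cover this.

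The libraries within a group differed in a shared way across these genes. Myα5KO replicate 3 was the highest of all 6 libraries for 8 of the 10 genes, and Myα5KO replicate 1 was the lowest of its group for 9. Within ITGA5 fl/fl, replicate 2 was the highest for 7 genes and replicate 1 the lowest for 8. Hspa1a in Myα5KO replicates 1, 2 and 3 stood at 95.9%, 161% and 194% of the control mean, and in the controls between 85.8% and 124%. Mitochondrial transcripts, a rough sign of cell quality, took 0.954 to 1.01% of counts in ITGA5 fl/fl and 1.01 to 1.08% in Myα5KO libraries, and the total counts of the 3 Myα5KO libraries were within 18232574 to 18419287. Summed neutrophil markers were 115, 80.1 and 109 CPM in ITGA5 fl/fl against 181, 164 and 264 CPM in the Myα5KO libraries, and summed B cell markers 119, 147 and 164 CPM against 257, 166 and 188 CPM. Summed T and NK cell markers were 27.9 to 29.9 CPM in the controls and 33.3 to 37.2 CPM in Myα5KO. All 3 sums were higher in every Myα5KO library than in any control, and within Myα5KO each was lowest in replicate 2. The part of these cells in the heat shock values was not tested.

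The test of the inducible genes turned on 1 library. Without Myα5KO replicate 1, edgeR called 6 of the 10 genes higher, against 2.83% of the 14853 genes tested in that fit. Their log2 fold changes were then 0.82 for Hspa1a, 0.66 for Hspa1b, 0.54 for Hsph1, 0.44 for Hspb1, 0.40 for Dnajb1 and 0.36 for Hsp90aa1, with adjusted p between 0.00183 and 0.0280. These 6 calls are not independent of one another. Hspa1a and Hspa1b share reads, and Myα5KO replicate 1 was the lowest of its group for each of the 6 genes. Without any other library, none of the 10 was called higher. Without Myα5KO replicate 3, the log2 fold change of Hspa1a was 0.36 and that of Hspb1 was -0.08. Hspa5 was called lower in each of these fits.

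**Figure D2:**
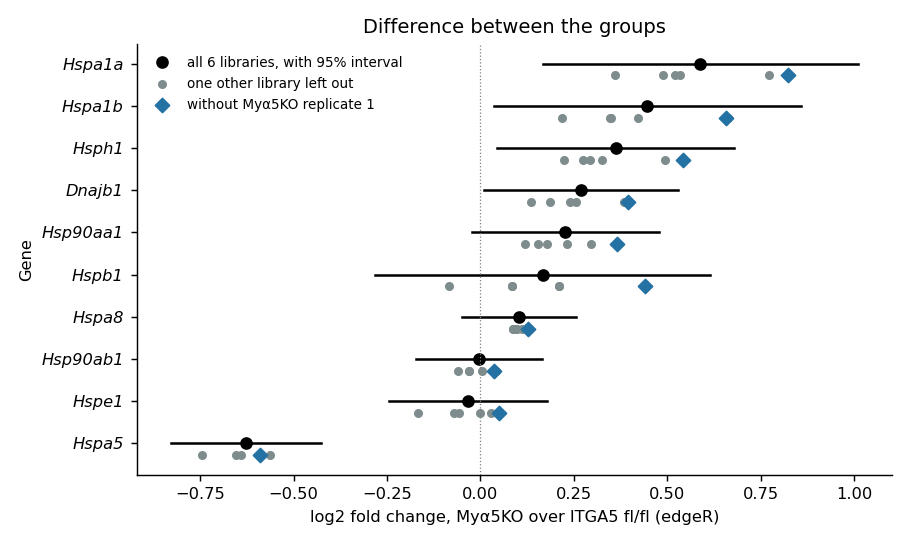
Log2 fold change of the 10 genes, Myα5KO over ITGA5 fl/fl, from edgeR. Black points and lines give the estimate and 95% interval from all 6 libraries, blue diamonds the estimate without Myα5KO replicate 1, and grey points the estimates with each other library left out. Hspa5 lies between -0.75 and -0.56 in every fit with a library left out, whereas Hspa1a ranges from 0.36 to 0.82.

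Immediate early genes are induced within minutes in cells taken from tissue by enzymes, and 17 of them were set beside the heat shock genes. In Myα5KO libraries 8 of the 17 rose and 1 fell by the same edgeR threshold, against 3.56% and 5.19% of all tested genes. The median log2 fold change of the 17 was 0.39. The 2 largest increases were Btg2, an antiproliferative gene, at 0.65 (SE 0.12, adjusted p 0.00495 in edgeR), and Atf3, a stress-induced transcription factor, at 0.59 (SE 0.14, adjusted p 0.0213 in edgeR). Ier3, an early gene that restrains apoptosis, fell by 0.41 on the log2 scale (SE 0.08, adjusted p 0.00584 in edgeR). Without ITGA5 fl/fl replicate 3 the number that rose was 1 (1.26% of all genes tested in that fit), and without Myα5KO replicate 1 it was 13 (2.83% of all). Atf3 was not called by DESeq2 (adjusted p 0.0880) or without ITGA5 fl/fl replicate 3 (0.49, adjusted p 0.104). The number that rose was 5 without ITGA5 fl/fl replicate 2, 4 without Myα5KO replicate 2 and 5 without Myα5KO replicate 3. In these fits 1.7%, 1.78% and 2.71% of all tested genes rose.

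The summed level of the 17 early genes was 13575, 13888 and 12976 CPM in ITGA5 fl/fl and 13752, 16379.8 and 18388 CPM in Myα5KO replicates 1, 2 and 3. Myα5KO replicate 1 was the lowest of its group for 17 of the 17 genes, and replicate 3 the highest of all 6 libraries for 14. This was also the order of Hspa1a and Hspa1b within Myα5KO. With such a shared order, the calls among the early genes are not independent of one another either. Within ITGA5 fl/fl, replicate 2 was the highest both for Hspa1a and Hspa1b and for the sum of the early genes. Of the 17 single early genes, however, replicate 2 was the highest control for 6 and replicate 1 for 7. The lowest control was replicate 1 for Hspa1a and Hspa1b, but replicate 3 for the sum and for 11 of the 17 early genes. The methods give a single digestion protocol for all hearts, with Liberase at body temperature for a set time, and the part of digestion in the heat shock values was not tested.

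**Figure D3:**
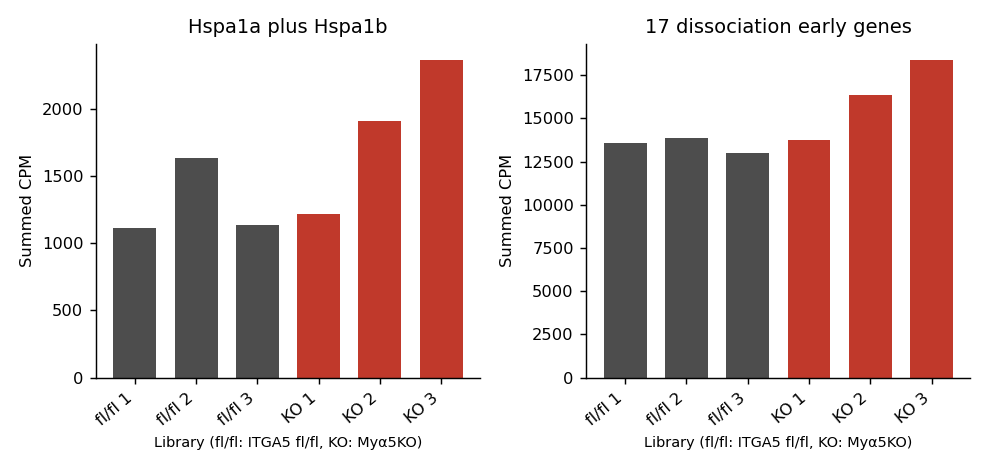
Summed CPM of Hspa1a and Hspa1b (left) and of 17 early genes linked to tissue dissociation (right) in each library, as bars from 0, with ITGA5 fl/fl in grey and Myα5KO in red. In Myα5KO both sums are lowest in replicate 1 and highest in replicate 3, and the early genes reach 18388 CPM there against 13752 CPM in replicate 1.

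The wider chaperone machinery was examined in 96 further tested genes, of which 2 rose and 10 fell, with a median log2 fold change of -0.08. Over all tested genes, 3.56% rose and 5.19% fell. With libraries scaled by totals alone, 6 of the 96 rose and 7 fell, against 8.35% and 3.57% of all tested genes. In the HSP70 list of 20 genes, Hspa12b, a distant HSP70 relative of endothelium, rose by 0.68 (SE 0.17, adjusted p 0.0289 in edgeR) from a mean of 4.47 CPM, besides the fall of Hyou1. Endothelial markers summed to 363 to 403 CPM in ITGA5 fl/fl and 380 to 435 CPM in Myα5KO libraries, and their part in the Hspa12b value was not tested. Among 14 HSP90 co-chaperones and relatives, Ahsa1, the activator of the HSP90 ATPase, rose by 0.27 (SE 0.06, adjusted p 0.0173 in edgeR). Ahsa1 had 61.9, 65.6 and 67.6 CPM in ITGA5 fl/fl and 77.5, 79.2 and 79.5 CPM in Myα5KO libraries, so replicate 1 of Myα5KO did not stand apart. The Ahsa1 call was lost without ITGA5 fl/fl replicate 1 or 2 or Myα5KO replicate 2 (log2 fold changes 0.24 to 0.30 and adjusted p up to 0.0713 with a library left out). That of Hspa12b was lost without ITGA5 fl/fl replicate 1 or 3 or Myα5KO replicate 3 (0.50 to 0.78, adjusted p up to 0.104).

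Of 20 J-domain genes 2 fell, against 5.19% of all tested genes. Dnajb4 had 84.7, 90.3 and 88.2 CPM in ITGA5 fl/fl and 61.8, 70.8 and 69.6 CPM in Myα5KO libraries (log2 fold change -0.38, SE 0.07, adjusted p 0.00500 in edgeR), and Dnajb6, an inhibitor of protein aggregation, had a log2 fold change of -0.31 (SE 0.06, adjusted p 0.00922 in edgeR). These 2 relatives of Dnajb1 thus lay on the other side of 0 from Dnajb1 itself. For both the groups did not overlap, as for 28.6% of all tested genes. None of the 15 chaperonin and prefoldin genes was called by edgeR, DESeq2 or limma-voom, against 8.75%, 9.01% and 8.37% of all tested genes. At these shares a list of 15 genes would hold few calls. Of the 15, 0 had an unadjusted p under 0.05 in edgeR, against 23.1% of all tested genes. Their log2 fold changes lay between -0.16 and 0.19, with signs that moved with the scaling.

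Small heat shock proteins other than Hspb1 were scarce, and 6 of 9 were tested. Cryab, αB-crystallin, fell by 0.67 on the log2 scale (SE 0.17, adjusted p 0.0259 in edgeR) from 5.52 to 3.49 CPM, and Hspb7 fell by 1.05 (SE 0.29, adjusted p 0.0402 in edgeR). Both are abundant in cardiomyocytes. Neither was called by DESeq2 (adjusted p 0.0502 and 0.0555), and limma-voom did not call Hspb7 (adjusted p 0.0649). The Hspb7 call remained in 1 of 6 fits with a library left out, that without ITGA5 fl/fl replicate 2 (log2 fold changes -1.30 to -0.88 and adjusted p 0.0175 to 0.149 over the 6). The Cryab call remained in 2, those without ITGA5 fl/fl replicate 1 or Myα5KO replicate 3 (-0.75 to -0.61, adjusted p 0.0285 to 0.1002). Summed cardiomyocyte markers were 22.5 to 25.3 CPM in ITGA5 fl/fl and 15.5 to 20.3 CPM in Myα5KO libraries, with none of the 11 at 0 throughout. Of the 9 tested, 2 were called lower in edgeR, against 5.19% of all tested genes. The log2 fold change was negative for 6 of the 9 and positive for 3, with a median of -0.11. The part of cardiomyocyte RNA in the Cryab and Hspb7 decreases was not tested.

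The list of heat shock factors and stress regulators held 8 genes, of which 4 fell, against 5.19% of all tested genes. Hsf2, a heat shock factor that can pair with HSF1, had 20.0, 20.6 and 21.7 CPM in ITGA5 fl/fl and 15.4, 15.7 and 13.8 CPM in Myα5KO libraries (log2 fold change -0.47, SE 0.10, adjusted p 0.00814 in edgeR). Sqstm1, the autophagy receptor p62, had 2999.5, 2872 and 2836 CPM in ITGA5 fl/fl and 1826, 2038 and 1917 CPM in Myα5KO libraries (log2 fold change -0.59, SE 0.07, adjusted p 0.000418 in edgeR). Both were lower in every Myα5KO library than in any control. Ubb, which encodes polyubiquitin, also fell (log2 fold change -0.28, adjusted p 0.0450 in edgeR), but was called in 1 of 6 fits with a library left out, that without Myα5KO replicate 1 (-0.34 to -0.19, adjusted p 0.0468 to 0.178), and not with library-size scaling (adjusted p 0.112). Hsf1 had a log2 fold change of -0.09 with a 95% interval of -0.25 to 0.07 (adjusted p 0.531 in edgeR).

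**Figure D4:**
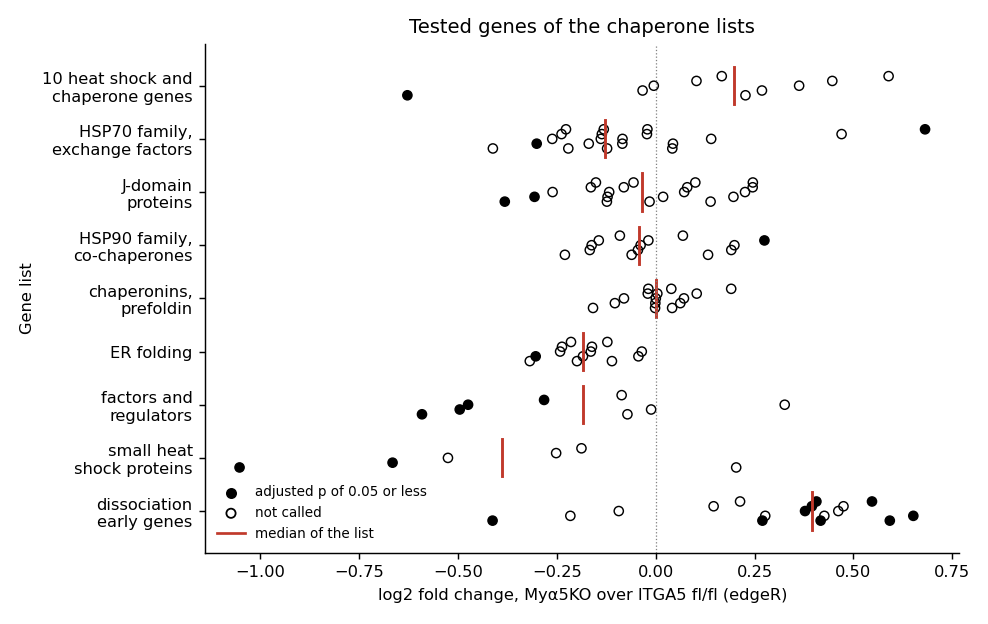
Log2 fold change, Myα5KO over ITGA5 fl/fl, of each tested gene in 9 lists. Filled points passed an adjusted p of 0.05 in edgeR, open points did not, and red bars are list medians. The 13 endoplasmic reticulum genes all lie below 0 with a median of -0.18 (11 of 13 do so when libraries are scaled by their totals alone), the chaperonins gather around 0, and the early genes have a median of 0.39.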

How the data were processed

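Ly6G- CD11b+ cells of 6 infarcted hearts gave 1 polyadenylated RNA library each, with 3 libraries per genotype. After trimming and quality filtering, the authors aligned reads to GRCm38.p6 with TopHat2 2.0.9 and deposited raw counts per gene from HTSeq 0.6.1. The treatment of multi-mapped reads and of strand is not given in the sources used here. The authors also deposited FPKM values, which equal the counts divided by gene length and a constant per library. Cufflinks 2.1.1 is named in the submitters' notes.

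Counts were fitted in R 4.3.3 with edgeR 4.0.16 (quasi-likelihood, TMM scaling), with the default filter (minimum count 10, minimum total count 15), two-sided p and Benjamini-Hochberg adjustment over 14522 genes at 0.05. No covariate was used. CPM came from the same scaling. Alternatives were DESeq2 1.42.0, limma 3.58.1 (voom, and trend on log2(FPKM + 1) or log2(FPKM + 0.1) where 3 or more libraries reached an FPKM of 1), other scalings and filters, omission of each library, a block for the replicate number, an adjusted p of 0.01 and a minimum of 1.5-fold. Scripts were tested on simulated data.

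The genes and lists were chosen with earlier results of these data known. Named from the lists were all called genes up to 4, or else the 2 largest increases and decreases. Hsp90b1, Hspd1, Hsf1, Postn, the markers and the pseudogenes were named after their values were seen. One called gene of the regulator list is not reported here by name. No p adjusted over a list alone was computed. Promoter windows came from RefSeq (GRCm38.p6), and shared 150-base words, the read length, from GENCODE M21 transcripts on the same strand. Totals of 15424451 to 18419287 counts came from amplified reads, so their precision covers counting error only.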

Additional observations from a re-analysis of the deposited data

How the results depend on the processing

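The fall of Hspa5 was called in 17 of 19 alternatives. Among the 10 genes, the number called lower was 0 with log2(FPKM + 1) without a filter (Hspa5 adjusted p 0.107) and 0 for a minimum of 1.5-fold. It was 1 with each library left out. The number called higher, 0 in the report, was 1 with library-size scaling (Hspa1a), 5 without a count filter and 0 to 6 with a library left out. Without a count filter edgeR estimated an infinite prior df, against 9.5 with it, so genes shared 1 spread.

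For the further chaperone genes, the number higher (2 in the report) was 1 with log2(FPKM + 1) and 1 with log2(FPKM + 0.1). It was 0 without the FPKM filter, 6 with library-size scaling, 5 without a count filter, 0 at an adjusted p of 0.01, 0 for 1.5-fold and 1 to 3 with a library left out. The number lower (10 in the report) was 4 with log2(FPKM + 1) and 4 with log2(FPKM + 0.1), 0 without the FPKM filter, 5 at an adjusted p of 0.01, 0 for 1.5-fold and 5 to 10 with a library left out. Of the early genes, the number higher (8 in the report) was 0 in all 3 FPKM fits, 3 at an adjusted p of 0.01, 0 for 1.5-fold and 1 to 13 with a library left out. The number lower (1 in the report) was 2 with DESeq2, 0 without the FPKM filter and 0 for 1.5-fold. The cause of these shifts was not tested beyond the stricter thresholds and the fewer libraries.

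Estimates near 0 changed sign. Hsp90ab1 was at 0.075 under library-size scaling, 0.0017 without a count filter and between -0.061 and 0.042 with a library left out, where it was positive without ITGA5 fl/fl replicate 2, ITGA5 fl/fl replicate 3 (0.0041) or Myα5KO replicate 1 (0.037). Hspe1 was at 0.048 under library-size scaling and between -0.17 and 0.050 with a library left out, and was positive without ITGA5 fl/fl replicate 2 (0.028) or Myα5KO replicate 1. Hspb1 lay between -0.084 (without Myα5KO replicate 3) and 0.44 with a library left out. Library-size scaling moved the median of all genes from 0.01 to 0.10.

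With the replicate number as a block, 1 gene of the 10 was called higher (Hspa1a, 0.55, adjusted p 0.0429). Deviations of same-numbered libraries from their group means correlated at 0.05, -0.06 and 0.04, and those of differently numbered libraries at -0.10 to 0.06. Deviations from a mean of 3 libraries are not independent, so these values cannot decide whether the numbers pair the samples.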
